A study of Mus musculus with 18 samples.

Results

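The subject here is 9 genes that were higher in the adrenal glands of intact male mice than in those of castrated males and females: Susd3, Acan, Cited1, Rarres1, Crym, Drd4, Kcnk1, Hmox1 and Rrad. They were selected on the values of these same arrays, by their low level after castration and in females. They are 9 of the 10375 genes tested. Every probe annotated to them was followed, 13 of the 45281 probes on the array. The members were thus chosen by the differences of castrated males and of females from intact males, and those differences are given below as a description. No p-value is given for them, and counts of calls stand only beside the same share of all genes. The comparison of knockout with wild type did not enter the choice and was tested.

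RNA of whole adrenal glands from C57BL/6N mice aged 2 months was hybridised to Illumina bead arrays. There were 6 groups of 3 arrays: intact males, castrated males and females, each either wild type or knocked out for Ephb6, which codes for an ephrin receptor without kinase activity of its own. Neither the interval between castration and sampling nor the design of the knockout allele is given in the sources used here. The labels number the samples and do not say that each came from a separate animal. A p-value here therefore weighs a difference against the spread among samples of a group, and part or all of that spread may be technical.

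Hormones of the testis act on the adrenal cortex. In male mice testicular androgens make the X-zone, the innermost layer of the cortex, regress at puberty. The layer persists in young females and returns after castration, which makes the gland a common setting for the study of sex differences. No hormone was measured here and castration removes every product of the testis, so the 9 genes are called by their pattern, lower in castrated males and females than in intact males. In bulk tissue, fewer cells of a type and less RNA per cell cannot be told apart.

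The arrays matched their labels in sex and surgery. Akr1c18, the enzyme that marks the X-zone, had a mean log2 intensity of 4.64 and 4.71 in wild-type and knockout intact males, on arrays that did not detect it, against 13.3 to 13.7 in the other 4 groups. Xist was detected in females only and the Y-linked Eif2s3y in males only. Ephb6 fell by 1.14 on average over the 3 conditions (SE 0.15, limma adjusted p = 0.00481). Within intact males its arrays overlapped between genotypes, at 5.73 to 6.37 in wild type and 4.89 to 5.86 in knockouts, and whether its probe lies in the deleted stretch was not tested. Knockout castrated male replicate 1 stood apart, with a mean raw signal of 244 and 27.8% of probes detected, against 445.8 to 639.5 and 34.6% to 37.9% on the other 17 arrays. In knockout females replicate 1 had the next lowest mean r with its own group, 0.970, against 0.973 to 0.987 on the 16 arrays other than these 2. Differences of the 9 genes without either array are given after the single genes.

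Promoter windows of the RefSeq table for GRCm38.p6, from 250 bases before to 50 bases after a start site, were found for 6 of the 9 genes, in 8 windows. Crym, Hmox1 and Rrad had no entry. Windows of 4 genes with large differences between intact and castrated males are printed, 5′ to 3′ on the gene's strand, so that the letters around their start sites can be read beside the expression values. Capitals mark AAGGTCA, the site bound by Nr5a1 (steroidogenic factor 1, which the adrenal cortex needs to form), or TGACCTT, the same site on the opposite strand. The windows are chr13:49248245-49248544 (minus strand) for Susd3, chrX:102250727-102251026 (minus strand) for the first of 3 Cited1 windows, chr7:79052976-79053275 (plus strand) for Acan and chr3:67515474-67515773 (minus strand) for Rarres1.
Susd3: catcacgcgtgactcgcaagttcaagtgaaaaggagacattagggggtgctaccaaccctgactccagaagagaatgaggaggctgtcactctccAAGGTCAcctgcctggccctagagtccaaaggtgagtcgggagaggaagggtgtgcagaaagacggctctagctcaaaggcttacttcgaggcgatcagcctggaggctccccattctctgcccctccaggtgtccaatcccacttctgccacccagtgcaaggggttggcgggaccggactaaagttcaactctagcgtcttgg
Cited1: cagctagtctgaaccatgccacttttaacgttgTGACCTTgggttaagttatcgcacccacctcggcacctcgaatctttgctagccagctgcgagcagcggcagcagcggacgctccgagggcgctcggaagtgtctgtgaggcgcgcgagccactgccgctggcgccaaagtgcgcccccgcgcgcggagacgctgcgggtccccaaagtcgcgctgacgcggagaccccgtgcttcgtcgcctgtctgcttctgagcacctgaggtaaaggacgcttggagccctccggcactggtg
Acan: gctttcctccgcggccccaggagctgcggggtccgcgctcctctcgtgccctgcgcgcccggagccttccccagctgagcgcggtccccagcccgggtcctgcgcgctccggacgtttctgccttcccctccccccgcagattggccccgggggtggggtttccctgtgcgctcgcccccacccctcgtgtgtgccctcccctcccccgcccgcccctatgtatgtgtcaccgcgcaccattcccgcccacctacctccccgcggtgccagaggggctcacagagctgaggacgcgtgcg
Rarres1: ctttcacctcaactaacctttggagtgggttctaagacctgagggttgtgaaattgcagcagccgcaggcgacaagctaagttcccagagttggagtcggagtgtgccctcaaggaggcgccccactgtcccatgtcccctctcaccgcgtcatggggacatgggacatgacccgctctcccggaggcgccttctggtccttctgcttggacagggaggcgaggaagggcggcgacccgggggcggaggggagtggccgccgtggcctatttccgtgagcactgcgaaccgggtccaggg
Both strands of every window were searched for 5 motifs. The full steroid hormone response element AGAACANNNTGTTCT was in 0 of the 8 windows and in 0.00913% of the 32851 windows of the table. Its half-site AGAACA, which is contained in the full element, was in 0 of the 8 and in 19% of all windows. AAGGTCA was found once in the Susd3 window, 155 bases before the start site, and once in the first Cited1 window, 217 bases before it, while 4.72% of all windows hold it. The TATA box TATAAA was in the other 2 Cited1 windows, against 13.6% of all, and the cAMP response element TGACGTCA was in 0 of the 8, against 1.79%. A match is a description of the letters and not evidence of binding, and absence from a window of 300 bases says nothing of sites elsewhere.

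Array values below are log2 intensities after background correction and quantile normalization, given for each replicate from the lowest to the highest. A probe counts as detected on an array at a detection p under 0.01. Where no array of the dimmer group detected a gene, the difference is given as "at least" a fold. The brighter group's mean was set against a floor averaged over the dim arrays. That floor was the level of the dimmest detected probe on the array, or the gene's value where it was above that level. The chromosome of each gene is that of RefSeq for GRCm38.p6, in which all 9 are protein-coding genes. All 9 genes were detected on all 6 arrays of intact males. On the 12 other arrays between 2 and 6 of the 9 were detected.

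**Figure D1:**
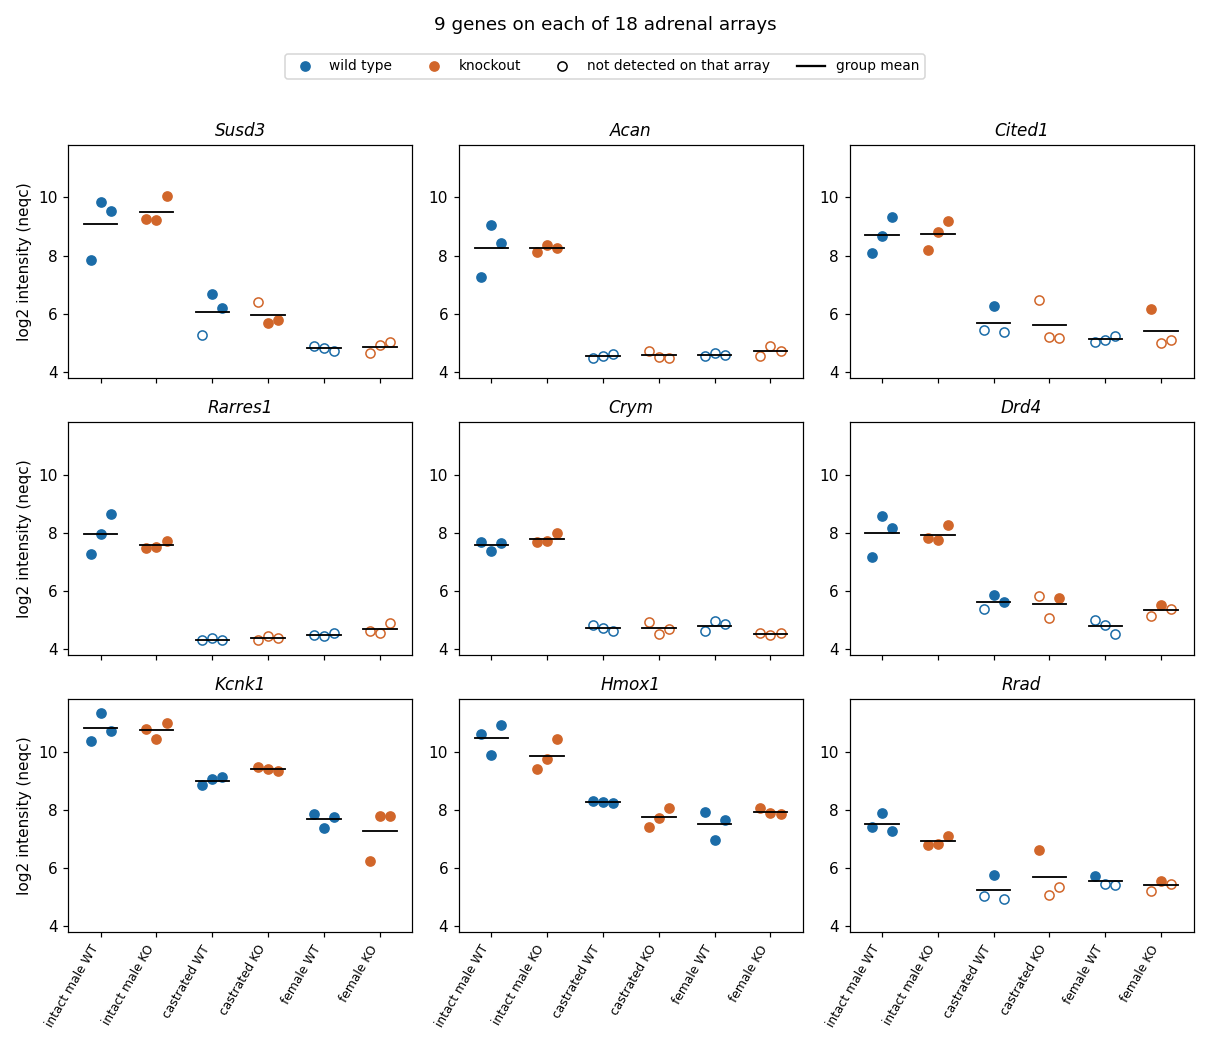
Log2 intensity of the tested probe of each of the 9 genes (vertical axis) in the 6 groups (horizontal axis), 1 point per array and a line at the mean of the 3 arrays; open points mark arrays on which the probe was not detected. Intact males of both genotypes lie above castrated males and females in every panel, and Kcnk1 and Hmox1 are detected on all 18 arrays.

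Susd3, Drd4 and Kcnk1 each code for a membrane protein. Susd3, on chromosome 13, codes for a sushi-domain protein that is an oestrogen-responsive gene in human breast cancer cells. Its intact male arrays read 7.85, 9.54 and 9.84 in wild type and 9.23, 9.25 and 10.03 in knockouts. In castrated males they read 5.27, 6.19 and 6.70 and, in knockouts, 5.69, 5.79 and 6.40. Female arrays read 4.71, 4.84 and 4.90 in wild type and 4.65, 4.94 and 5.05 in knockouts. Castrated males thus lay between intact males and females with no overlap on either side, in both genotypes. The castration difference was -3.02 in wild type and -3.54 in knockouts (SE 0.42 each), with 2 of 3 castrated arrays detecting the gene in each genotype. Females, in which 0 of 6 arrays detected the gene, were at least 11.7-fold lower in wild type and at least 15.4-fold lower in knockouts. The second Susd3 probe was dim and was detected on 4 arrays, 1 wild-type and 3 knockout intact males. With 0 of 6 castrated and 0 of 6 female arrays detecting it, this probe gave a bound only for knockout females, at least 1.23-fold lower.

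Drd4 codes for the D4 dopamine receptor, which lowers cAMP through inhibitory G proteins, and lies on chromosome 7. Intact males read 7.18, 8.18 and 8.57 in wild type and 7.74, 7.80 and 8.28 in knockouts. After castration the values were 5.39, 5.63 and 5.85, and 5.06, 5.76 and 5.84 in knockouts. In females they were 4.53, 4.83 and 4.99, and 5.13, 5.37 and 5.52 in knockouts. Each intact male array was above all 12 others. Castrated and female arrays did not overlap in wild type and did overlap in knockouts. Castration differences were -2.35 and -2.39 (SE 0.30) in wild type and knockouts, and the female difference was at least 5.45-fold in wild type and -2.60 on the log2 scale in knockouts. Drd4 was detected on 2 of 3 wild-type castrated arrays, 1 of 3 knockout castrated arrays and 1 of 3 knockout female arrays.

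Kcnk1 codes for TWIK-1, a weak inward-rectifying channel of the K2P potassium channel family, and lies on chromosome 8. It was bright enough to be detected on all 18 arrays, so its differences are measured on both sides. Wild-type arrays read 10.36, 10.72 and 11.33 in intact males, 8.84, 9.06 and 9.12 in castrated males and 7.39, 7.76 and 7.86 in females. Knockout arrays read 10.42, 10.78 and 10.98, then 9.34, 9.41 and 9.48, then 6.24, 7.77 and 7.80. The order intact males, castrated males, females held with no overlap in both genotypes. The castration difference was -1.80 in wild type and -1.32 in knockouts and the female difference -3.13 and -3.46 (SE 0.31). The second Kcnk1 probe gave -1.67 and -1.09 after castration and -2.83 and -3.12 in females.

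Acan and Rarres1 code for an extracellular matrix protein and a relative of a peptidase inhibitor, and both were detected in intact males alone. Acan, on chromosome 7, codes for aggrecan, the large proteoglycan of cartilage. Its intact male arrays read 7.27, 8.43 and 9.05 in wild type and 8.13, 8.27 and 8.38 in knockouts. All 12 arrays of castrated males and females lay between 4.48 and 4.91, with 0 of 12 detecting the gene. Wild-type castrated males were at least 6.22-fold lower and knockout castrated males at least 5.14-fold lower than intact males. For females the bounds were 6.59-fold and 6.49-fold. The second Acan probe was likewise detected in intact males alone, and its bounds were 3.21-fold and 2.64-fold after castration and 3.40-fold and 3.33-fold in females.

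Rarres1, on chromosome 3, is a retinoic acid responsive gene whose protein resembles latexin, a carboxypeptidase inhibitor. The tested probe read 7.26, 7.95 and 8.63 in wild-type intact males and 7.47, 7.53 and 7.71 in knockout intact males. The other 12 arrays lay between 4.31 and 4.91 and none detected it. The bound after castration was at least 5.05-fold lower in wild type and at least 3.19-fold lower in knockouts. For females the bounds were 5.35-fold and 4.03-fold. Its second probe was detected on 0 arrays in any group and was left out by the detection filter, so the Rarres1 values rest on 1 probe.

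Cited1 and Crym code for proteins that act with transcription factors or hormones inside the cell. Cited1, on chromosome X, codes for a transcriptional coactivator that binds CBP and p300. Intact male arrays read 8.08, 8.69 and 9.34 in wild type and 8.19, 8.81 and 9.20 in knockouts. Castrated male arrays read 5.37, 5.43 and 6.28 in wild type and 5.18, 5.19 and 6.49 in knockouts. Female arrays read 5.02, 5.11 and 5.24 in wild type and 4.99, 5.12 and 6.16 in knockouts. Intact males stood above all other arrays, while castrated males and females lay within about the same range in knockouts. The castration difference was -3.01 in wild type (SE 0.40), and knockout castrated males, of which 0 of 3 detected the gene, were at least 7.14-fold lower. The knockout castrated value of 6.49 came from the dim replicate 1. Wild-type females were at least 9.01-fold lower, and the knockout female difference was -3.31. Cited1 was detected on 1 of 3 wild-type castrated arrays and 1 of 3 knockout female arrays.

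Crym, on chromosome 7, codes for mu-crystallin, an NADPH-dependent protein that binds thyroid hormone in the cytosol. Its intact male arrays lay close together, at 7.36, 7.65 and 7.70 in wild type and 7.69, 7.70 and 7.98 in knockouts. The other 12 arrays lay between 4.49 and 4.96 and none detected it. Castrated males were at least 3.87-fold lower in wild type and at least 3.72-fold lower in knockouts. Females were at least 4.10-fold and 4.70-fold lower.

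The remaining genes code for an enzyme and a small GTPase. Hmox1, on chromosome 8, codes for the inducible heme oxygenase, which breaks heme down to biliverdin, carbon monoxide and iron. Every array detected it. Intact males read 9.90, 10.59 and 10.92 in wild type and 9.40, 9.73 and 10.43 in knockouts. Castrated males read 8.25, 8.29 and 8.32 in wild type and 7.42, 7.72 and 8.08 in knockouts. Females read 6.97, 7.66 and 7.93 in wild type and 7.85, 7.91 and 8.06 in knockouts. The lowest intact male array, at 9.40, was above the highest of the other 12, at 8.32. Castration differences were -2.19 and -2.11 and female differences -2.95 and -1.92 in wild type and knockouts (SE 0.28).

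Rrad, on chromosome 8, codes for an RGK-family GTPase that inhibits voltage-gated calcium channels. Intact males read 7.28, 7.40 and 7.89 in wild type and 6.80, 6.84 and 7.12 in knockouts. Castrated males read 4.93, 5.04 and 5.75 in wild type and 5.07, 5.35 and 6.62 in knockouts. Females read 5.43, 5.47 and 5.73 in wild type and 5.23, 5.45 and 5.57 in knockouts. Rrad had the narrowest gap of the 9 genes in knockouts, where the highest castrated array lay just under the lowest intact male array. That array was replicate 1, the dim one. The castration difference was -2.28 in wild type and -1.24 in knockouts (SE 0.32). Without replicate 1 no knockout castrated array detected Rrad, which left a bound of at least 2.51-fold. Female differences were -1.98 and -1.50. In each castrated and female group 1 of 3 arrays detected Rrad.

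Without the dim replicate 1, the castration difference in knockouts was -3.76 for Susd3, -2.53 for Drd4, -1.35 for Kcnk1 and -1.95 for Hmox1. The bounds became 6.33-fold for Acan, 8.80-fold for Cited1, 3.93-fold for Rarres1 and 4.58-fold for Crym. All 9 genes were thus lower with and without that array, and the floor it sets lowers the bounds. Without knockout female replicate 1, which held the lowest Kcnk1 value and the highest Cited1 value of its group, the female difference of Kcnk1 in knockouts was -2.94 and that of Cited1 a bound of at least 9.34-fold.

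**Figure D2:**
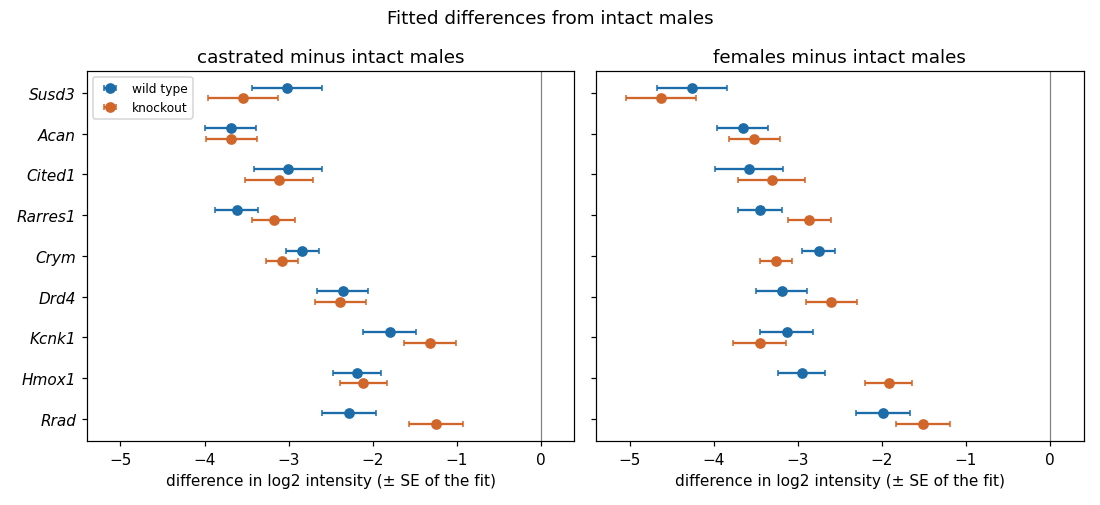
Fitted differences in log2 intensity (horizontal axis) of castrated males (left) and of females (right) from intact males, for the 9 genes (vertical axis) in wild type and knockouts, with bars of 1 standard error. All 36 fitted differences lie below 0; for genes not detected in the lower group the plotted value is the fitted one and not a bound.

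The choice of the genes fixed their direction, and the counts that follow add no support to it. After castration, all 9 genes were called lower at a limma adjusted p under 0.05 in wild type, where 6.1% of all tested genes were, and all 9 in knockouts, where 10.1% were. In females the counts were again 9 and 9, beside 4.82% in wild type and 4.77% in knockouts. The arrays of the 2 groups did not overlap for any of the 9 genes in any of these comparisons. Such a lower, non-overlapping pattern was found for 18% of all genes after castration in wild type, 17.6% in knockouts, 15.4% in wild-type females and 15.1% in knockout females. Castration and female differences of a genotype share the same intact male arrays. The size of the differences depends on the background correction: without it the fitted wild-type castration differences, those of undetected genes included, ran from -1.85 to -0.96, and in the authors' normalized table from -1.79 to -0.97, against -3.69 to -1.80 with it. With median scaling in place of quantile normalization the median of all genes moved to -0.16 after castration in wild type and to -0.41 in knockouts, and the 9 genes ran from -3.77 to -1.93 in wild type.

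Castrated males and females were not equally low for every gene. In wild type the castrated arrays were all above the female arrays for 5 of the 9 genes, Susd3, Kcnk1, Drd4, Hmox1 and Cited1, a pattern found for 8.67% of all genes. Kcnk1 and Hmox1, detected on every array, differed by 1.34 and 0.77. Against females that did not detect them, Susd3 was at least 1.44-fold, Cited1 at least 1.12-fold and Drd4 at least 1.07-fold higher. Of the 3 castrated arrays, 2 detected Susd3, 2 Drd4 and 1 Cited1. Castrated arrays without detection entered the mean at their measured values, so these bounds are not strict. In knockouts this held for 2 of the 9, Kcnk1 and Susd3, against 8.71% of all genes. Kcnk1 differed by 2.14, or 1.62 without female replicate 1. Susd3, detected on 2 of 3 castrated arrays, was at least 1.32-fold higher, or 1.14-fold without the dim castrated replicate 1. For Drd4 and Hmox1 the knockout differences were 0.21 and -0.20, with overlapping arrays. Acan, Rarres1 and Crym were not detected in either group, so no order between castrated males and females can be read for them. These arrays are also the ones that chose the genes, and no test is given.

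Across the 18 arrays the 9 genes moved together, which their choice on these same arrays fixed in large part. Pearson's r over the 36 pairs of genes ran from 0.78 to 0.98, with a median of 0.91, and describes mainly the gap between intact males and the rest. Once group means were taken out, r ran from -0.33 to 0.88 with a median of 0.31, and 24 of the 36 pairs were positive. The closest pair within groups was Susd3 and Drd4 at 0.88, followed by Acan and Drd4 at 0.78 and Susd3 and Acan at 0.77. These 3 values lean on wild-type intact male replicates 1 and 2. Their deviations from the group mean were -1.23 and 0.76 for Susd3, -0.98 and 0.80 for Acan and -0.80 and 0.60 for Drd4. Outside intact males Acan was not detected, so its deviations there are background. No r within groups of other genes is given beside these. Wild-type intact male replicate 1 had the lowest value of its group for 6 of the 9 genes, and knockout intact male replicate 3 the highest for 8 of 9. Without the former, the wild-type castration difference of Susd3 was -3.64 and Acan was at least 8.75-fold lower. In the castrated knockouts the dim replicate 1 was highest for 7 of the 9 genes.

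Knockout of Ephb6 moved none of the 9 genes past the test in any of the 3 conditions. In each of these 3 comparisons 0 members were called by limma at an adjusted p under 0.05, and 0% of all genes were. Before adjustment, 1 of the 9 in intact males and none in the other conditions had a p under 0.05, against 651 of all genes in castrated males, 291 in females and 275 in intact males. Differences of the 9 genes ran from -0.62 to 0.43 in intact males, from -0.54 to 0.44 in castrated males and from -0.40 to 0.55 in females. Their 95% intervals reached from -1.28 to 1.30 in intact males, -1.13 to 1.11 in castrated males and -1.06 to 1.19 in females. These are the outermost ends over the 9 genes, and single intervals were narrower, such as -0.18 to 0.63 for Crym in intact males. With 3 arrays a group, changes within a gene's own interval were not excluded. Hmox1 had the smallest p in intact males, at a knockout difference of -0.62 (SE 0.28, 95% interval -1.20 to -0.03, limma adjusted p = 1), and in castrated males, at -0.54 (SE 0.28, interval -1.13 to 0.04, limma adjusted p = 0.751). In females Drd4 had the smallest p, with a difference of 0.55 (SE 0.30, interval -0.08 to 1.19, limma adjusted p = 1), though 0 wild-type and 1 knockout female array detected it. Without knockout castrated male replicate 1, the difference in castrated males was -0.39 for Hmox1 and turned from 0.44 to -0.03 for Rrad. Without knockout female replicate 1, the difference of Kcnk1 in females turned from -0.40 to 0.12.

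Wild-type and knockout arrays did not overlap for 1 of the 9 genes in intact males (Rrad, lower in knockouts), beside 8.16% of all genes. In females this held for 3 of 9, with Crym lower and Rarres1 and Drd4 higher in knockouts, beside 7.76%, but Crym and Rarres1 were not detected in either female group. In castrated males it held for 2 of 9, Hmox1 lower and Kcnk1 higher in knockouts, beside 11.2%. Averaged over the 3 conditions, knockout differences of the 9 genes ran from -0.25 for Hmox1 (SE 0.16, interval -0.59 to 0.09, limma adjusted p = 0.979) to 0.15 for Drd4. There limma called 0 members, of which 0 had an unadjusted p under 0.05 against 397 of all genes, and 0.00964% of all genes were called, which is Ephb6 alone.

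**Figure D3:**
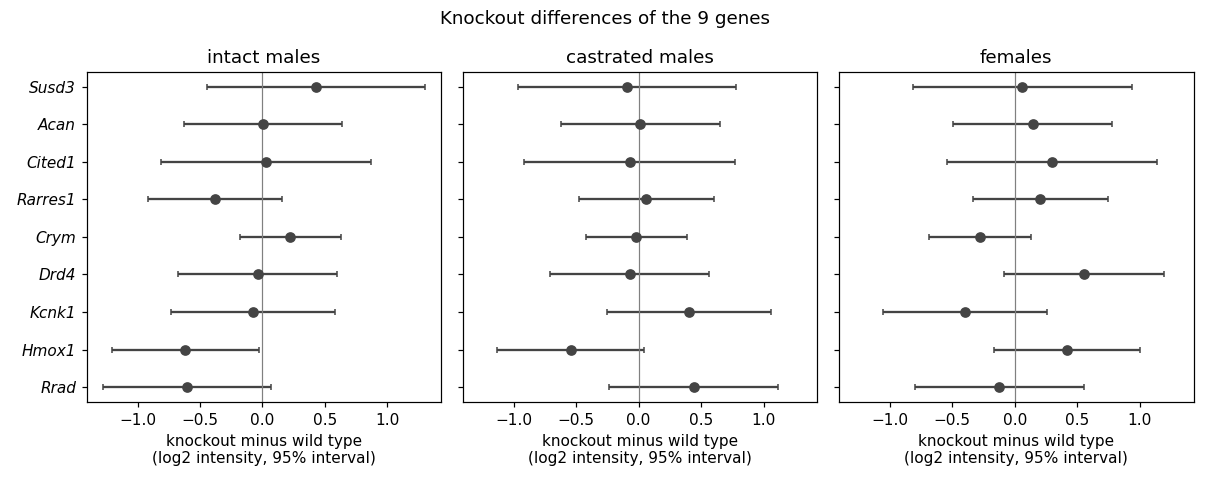
Knockout minus wild-type differences in log2 intensity (horizontal axis, with 95% intervals of the limma fit) of the 9 genes (vertical axis) in intact males, castrated males and females. Points lie between -0.62 and 0.55, and the interval of Hmox1 in intact males, -1.20 to -0.03, is the one that leaves out 0 before adjustment over all genes.

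Castration and female differences were also compared between genotypes. These are the differences that chose the genes, so the values are a description of the 9. For castration, limma called 0 of the 9 genes and 0% of all genes, with 417 genes and 1 member, Rrad, at an unadjusted p under 0.05. The castration difference of Rrad was smaller in knockouts by 1.04 (SE 0.45) on the log2 scale. The fitted value was 0.57 (SE 0.34) without the dim array, when no castrated knockout array detected Rrad. Knockout differences of Rrad were -0.60 in intact males, where every array detected it, and 0.44 in castrated males. For females against intact males, limma again called 0 of 9 and 0% of all genes, with 181 genes and 1 member, Hmox1, at an unadjusted p under 0.05. The female difference of Hmox1 was smaller in knockouts by 1.04 (SE 0.40). The Hmox1 knockout mean was below the wild-type mean in intact males, at 9.85 against 10.47, and above it in females, at 7.94 against 7.52.

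Other genes followed the same pattern. The 5 genes whose values had the highest r with the mean standardised profile of the 9, over 18 arrays, were St6galnac2 at 0.98, Agpat4 at 0.97, Timp2 at 0.96, 9530077C05Rik at 0.96 and Lynx1 at 0.96. St6galnac2 codes for a sialyltransferase, Agpat4 for an acyltransferase of phospholipid synthesis, Timp2 for an inhibitor of matrix metalloproteinases and Lynx1 for a modulator of nicotinic acetylcholine receptors. In wild type St6galnac2 differed from intact males by -1.83 both after castration and in females, and Lynx1 by -1.69 and -1.61. The corresponding values were -1.52 and -1.57 for Agpat4, -1.32 and -1.60 for Timp2, and -0.84 and -0.95 for 9530077C05Rik. All 5 were bright in intact males, at mean log2 intensities of 8.64 to 12.04. Among the members themselves, Susd3 was most like Drd4 (r = 0.98), Acan most like Rarres1 (0.98) and Crym most like Rarres1 (0.97). Cited1 was most like Sort1 (0.96), Rrad like Chn2 (0.95), Hmox1 like Hdhd3 (0.94) and Kcnk1 like Igdcc4 (0.96). Kcnk1 had the lowest r with the mean of the other 8 members, 0.85, against 0.90 to 0.98 for the others. These correlations share the same contrast between intact males and the rest, and no p is given for them.

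Markers of the X-zone and a few further genes ran opposite to the 9. The 3 genes with the most negative r with the 9, chosen after their values were seen, were Frzb at -0.99, Akr1c18 at -0.98 and Cd1d1 at -0.98. Frzb codes for a secreted Wnt antagonist and Cd1d1 for a molecule that presents lipid antigens. In wild type Frzb, detected on 1 of the 3 intact male arrays, was higher by 3.91 after castration and 4.38 in females, and Cd1d1 by 4.18 and 4.43. Akr1c18 was at least 273-fold higher after castration and at least 282-fold higher in females. The summed linear intensity of the 2 X-zone markers, Akr1c18 and Pik3c2g, was 43.3 to 54.1 in intact males, where neither was detected, against 9703 to 16820 in castrated males and 7871 to 23630 in females. Markers of the zona glomerulosa, the outer aldosterone-making layer, were called lower for 2 of 5 genes after castration and 3 of 5 in females in wild type, with summed intensities of 11180 to 14980 in wild-type intact males, 6961 to 9943 in castrated males and 7026 to 10920 in females. Chromaffin cell markers were called lower for 2 of 5 after castration in wild type (51080 to 56070, against 62330 to 82460) and for 4 of 5 in knockouts (36200 to 45390, against 73070 to 82550). In females 0 of 5 were called by limma in either genotype. Endothelial markers were called lower for 3 of 5 after castration in each genotype (5912 to 6151 in wild type, against 7677 to 9777) and for 0 of 5 in females. Genes of steroid synthesis in the cortex were called higher after castration for 2 of 6 in wild type (34750 to 36740, against 29130 to 32420) and for 5 of 6 in knockouts (33690 to 40340, against 26640 to 27710). For these 6 genes in females, 1 was called higher and 1 lower in wild type, and 1 higher and 0 lower in knockouts. Over all genes, 6.1% were called lower and 4.61% higher after castration in wild type, and 10.1% lower and 7.45% higher in knockouts. The shares in females were 4.82% lower and 5.31% higher in wild type, and 4.77% lower and 5.52% higher in knockouts. The part of these cell types in the levels of the 9 genes was not tested.

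**Figure D4:**
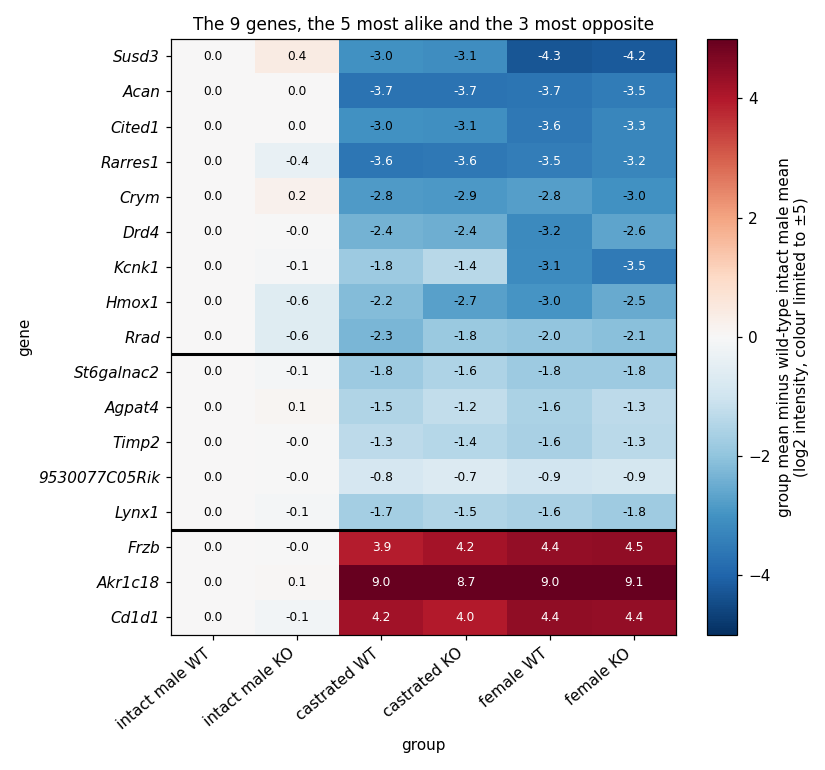
Group mean of log2 intensity minus the wild-type intact male mean (colour and printed value) for the 9 genes (top block), the 5 genes most like them (middle) and the 3 most opposite (bottom) in the 6 groups. The top and middle blocks are lower in castrated males and females of both genotypes, while Frzb, Akr1c18 and Cd1d1 are higher; values of genes not detected in a group are measured means and not bounds.

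Relatives and pathway partners of the 9 genes were called in both directions. In 10 lists of such genes there were 107 entries, and 57 were tested. After castration 1 of the 57 was called lower and 4 higher in wild type, beside 6.1% and 4.61% of all genes, and 5 lower and 9 higher in knockouts, beside 10.1% and 7.45%. In females 5 were called lower and 3 higher in wild type, beside 4.82% and 5.31% of all genes, and 4 lower and 1 higher in knockouts, beside 4.77% and 5.52%. In wild type the median difference over the 57 was -0.07 after castration and -0.10 in females, against -0.03 and -0.02 over all genes. Among 7 genes of sex-steroid action and metabolism, Hsd17b1, which makes oestradiol from oestrone, rose by 1.11 after castration (SE 0.25, limma adjusted p = 0.00831). Fkbp4, a co-chaperone of steroid receptors, rose by 0.50 (limma adjusted p = 0.0184), and in females 0 of the 7 passed the limma test, with 3 at an unadjusted p under 0.05.

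Of 6 other K2P potassium channel genes, Kcnk9, which codes for TASK-3, was the one called lower by limma in both wild-type comparisons. It was at least 1.34-fold lower after castration and at least 1.42-fold lower in females. Kcnk9 is also 1 of the 5 zona glomerulosa markers given above. Of 6 genes of thyroid hormone handling beside Crym, Thrsp, a thyroid hormone responsive gene of fat synthesis, rose by 1.28 after castration and 1.52 in females. Of 14 genes of heme breakdown and NRF2 response beside Hmox1, 0 passed the limma test after castration in wild type, with 4 at an unadjusted p under 0.05. In wild-type females Ftl1, the ferritin light chain, fell by 0.46 and Slc48a1, a heme transporter, fell by 0.43.
Of 3 tested partners, relatives and proteases of aggrecan, the hyaluronan receptor Cd44 rose by 1.95 after castration and 1.21 in females. The proteoglycan Bcan fell by 0.91 in females. None of the listed Hapln and Has genes was tested. The coactivator Cited4 rose by 1.09 and the sushi-domain gene Susd6 fell by 0.42 in wild-type females. Of 8 genes of the retinoid receptors and the latexin family beside Rarres1, 0 passed the limma test in wild type. In each wild-type comparison 1 of these 8 had an unadjusted p under 0.05. Of 5 calcium channel subunits listed for Rrad and 1 other dopamine receptor, 0 passed in wild type. The other RGK GTPases, Gem, Rem1 and Rem2, were not tested.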

How the data were processed

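Adrenal RNA was measured on 18 Illumina bead arrays, 3 in each of 6 groups. Per the labels' protocols, total RNA was column-purified and amplified to biotinylated cRNA. For each of the 45281 probes and each array the deposited signal table holds, per the file headers, a mean bead intensity and a p-value of detection, without normalization between arrays. The authors also deposited normalized intensity values, made by a method that the sources used here do not state. GenomeStudio is named, per the submitters' processing notes.

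Signals were background-corrected with the detection p, quantile-normalized and log2-transformed with an offset of 16 (neqc, limma 3.58.1, R 4.3.3). The detection filter asked for p under 0.01 on 3 or more arrays and left 18158 probes. Each of 10375 genes was represented by its brightest probe on average. The platform annotation names 1 gene for 34885 probes. It names several for 18 probes, and 10378 have no name. RefSeq held 34807 of the named probes' genes and changed 0 symbols. Of 13 probes of the 9 genes, 12 were kept. A single limma fit of all 18 arrays (12 residual degrees of freedom, trended eBayes) gave every contrast, with Benjamini-Hochberg adjustment over all genes and a threshold of 0.05. Precision is set by 3 arrays a group, with a median standard error of 0.21 between 2 groups and 0.29 for a difference of differences. The code was tested on simulated data.

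The 9 genes, the related lists and the markers were chosen with earlier results of these data known. All 9 genes are named. Of each list, at most 4 genes that passed in wild type are named. For each knockout contrast the member with the smallest p is named. The 5 genes of highest r with the members, and the 1 most like each member, are named too. Same-numbered samples were not shown to be pairs: in 7 comparisons of groups their deviations had r from -0.19 to 0.23, and no comparison had every pair over 0.1. Slide and scan are not known. The alternatives were other scalings, filters, probes and weights, the authors' table, a replicate block and leaving out arrays.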

Additional observations from a re-analysis of the deposited data

How the results depend on the processing

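The 9 genes were lower than in intact males in all 972 values from 27 alternatives (36 differences each). Of these, 69 moved by more than the spread between replicates: 34 in the authors' normalized table, 33 without background correction and 2 with median scaling. The count of 9 called lower held in each alternative, except for 8 of 9 after castration in knockouts in 3 fits that each left out 1 array. Those arrays were knockout intact male replicate 3 and knockout castrated male replicates 2 and 3. The direction was fixed by the choice of the genes, so these counts are no sign of stability. Knockout counts stayed at 0 of 9 in every alternative, and none of the 6 named knockout differences changed sign or passed. Those 6 were named for the smallest p in each contrast, so their steady sign does not extend to the other knockout differences. Without 1 array the difference of Rrad in castrated males and that of Kcnk1 in females changed sign, as given above. With the replicate block, 9 members were again called lower in each castration and female comparison and 0 by knockout, with 1068 genes called after castration in wild type against 1111 without it. Same-numbered samples were not shown to be pairs.

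Counts over all genes moved more. After castration 1111 genes passed in wild type (542 to 1463 when single arrays were left out, 407 with median scaling, 2617 with array weights) and 1818 in knockouts (975 to 2067, then 1355 and 2783). In females 1051 passed in wild type (638 to 1321, then 316 and 2257) and 1068 in knockouts (661 to 1380, then 318 and 2048). By knockout, at most 3 genes passed in intact males (without wild-type replicate 1) and at most 6 on average over conditions (array weights). Median scaling put 9.08% of the calls after castration in knockouts on the higher side against 42.5%, and 31% against 43% in wild type. It moved the median of all genes to -0.265 for knockout in castrated males. Signal over background limits Acan, Rarres1 and Crym, which have only bounds outside intact males, and also Susd3 in females, Cited1 in wild-type females and knockout castrated males, and Drd4 in wild-type females. It also limits the measured differences of Rrad, detected on 1 of 3 arrays in every castrated and female group. The same 1 of 3 holds for Drd4 in knockout castrated males and knockout females, and for Cited1 in wild-type castrated males and knockout females.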
